A study of Homo sapiens with 4 samples.

Results

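The 36 interferon-response genes described here are 6 signalling factors and 30 genes that interferons are known to induce, with antigen presentation genes left aside. They were chosen by symbol, all 36 symbols are in the count files, and they stand among 20812 genes. Messenger RNA was measured in HCT116, an established human colon cancer cell line, by AmpliSeq sequencing, which reads 1 short PCR target per gene. The 4 groups were hIDO1-overexpressing cells with 1 mM indole, hIDO1-overexpressing cells with DMF, wild type cells with 1 mM indole and wild type cells with DMF, all for 24 h. DMF is the solvent, and indole is a bacterial product of tryptophan. The overexpressing cells are called the IDO1 line below. The labels do not give the promoter of the transgene, whether the line is 1 clone, or whether the wild type cells carried an empty vector. Each group is 1 library, so no difference between a pair of groups has a replicate check.

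Interferons are secreted proteins that tell cells of infection. Their receptors activate kinases of the JAK family, which phosphorylate STAT proteins. Type I and type III interferons act through a complex of STAT proteins and IRF9 that binds the interferon-stimulated response element (ISRE), while type II interferon acts mainly through STAT dimers at the gamma-activated site (GAS). The induced genes block viral entry, destroy viral RNA, or tag proteins with ISG15. IDO1, which opens the ring of tryptophan, is itself an interferon-inducible gene in many human cells.

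The promoters below show where GAS and ISRE matches lie near the start site of 7 of the genes. They were picked after the ratios were seen, 4 for a GAS match and 3 for ISRE matches, so they do not compare the motifs, and PARP14 holds both. Each line is 60 bases upstream of the start site, 5′ to 3′ on the gene's strand, with the matches in capitals, from the RefSeq promoter table of build GRCh38.p14.
IRF1 (chr5:132490864-132490923, minus strand): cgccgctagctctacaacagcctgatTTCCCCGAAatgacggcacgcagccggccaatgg
IRF9 (chr14:24161176-24161235, plus strand): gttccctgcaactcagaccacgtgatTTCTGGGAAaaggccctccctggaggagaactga
IFI35 (chr17:43006724-43006783, plus strand): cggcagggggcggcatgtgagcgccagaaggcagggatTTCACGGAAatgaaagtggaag
PARP14 (chr3:122680773-122680832, plus strand): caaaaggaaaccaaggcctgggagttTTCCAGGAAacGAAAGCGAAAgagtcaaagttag
ISG15 (chr1:1013365-1013424, plus strand): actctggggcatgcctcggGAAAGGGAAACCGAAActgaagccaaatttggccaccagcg
IFIT1 (chr10:89392495-89392554, plus strand): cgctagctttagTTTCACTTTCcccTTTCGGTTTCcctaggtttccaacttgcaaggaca
OAS3 (chr12:112938414-112938473, plus strand): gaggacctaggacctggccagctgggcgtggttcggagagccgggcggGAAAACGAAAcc
The GAS was searched as TTCNNNGAA and the ISRE as GAAA, 2 bases of any kind and GAAA again, on both strands, in windows of 250 bases before to 50 bases after the start site. GAS matches began at position -124 in IRF1, -63 in IRF9, -22 in IFI35 and -40 in PARP14. Of all 27305 promoters, 7.88% held a GAS match and 3.65% an ISRE match. A promoter was matched for 25 of the 36 genes, which is too few to describe the whole set, so its shares are not compared with these.

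IDO1 had 2440 and 3451 reads in the IDO1 line with indole and with DMF, against 2 and 0 in wild type with indole and with DMF. Totals were 18283862 to 22736172 reads. A count of 0 allows up to 3 reads, or 0.131 to 0.157 CPM (read counts scaled to a common library size by TMM, a trimmed mean of gene ratios), and floors and intervals cover counting error only. Wild type with indole was unlike the rest. On a first principal component with 73.0% of the variance it scored 32.6, against -15.3 to -3.69 for the other 3 libraries. Epithelial markers were present, with 6 of 9 at 10 CPM or more, although the enterocyte markers VIL1 and CDH17 had at most 2 reads. Of 12 leukocyte markers, 5 had 0 reads in all 4 libraries, PTPRC among them, and 5 had more than 3 reads, the most for CD68 with 118 to 186. The leukocyte list summed to 8.53 to 11.1 CPM per library. Of 5 markers of plasmacytoid dendritic cells, a main source of interferon in blood, 4 had 0 reads throughout, and TCF4 had 45 to 66 reads in the IDO1 line and 0 in wild type.

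Of the 36 genes, 19 reached 10 CPM in at least 1 library and 16 did so in all 4. Another 9 reached 1 to 10 CPM, 4 had a few reads below 1 CPM, and 4 had 0 reads in every library (GBP3, GBP4, IFI44L and MX2). GBP2 and DTX3L passed 10 CPM only in wild type with indole, so their place among the measured genes rests on that library. Of the 19 genes, 16 (84.2%) were highest in wild type with indole, where 35.2% of all 8845 genes at that level were. The other 3 were ISG15 and IFIT5, highest in wild type with DMF, and OAS3, highest in the IDO1 line with indole. Each gene is read from its own target, so levels are compared between libraries and not between genes. In bulk RNA, fewer cells that express a gene and less of its RNA per cell cannot be told apart.

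**Figure D1:**
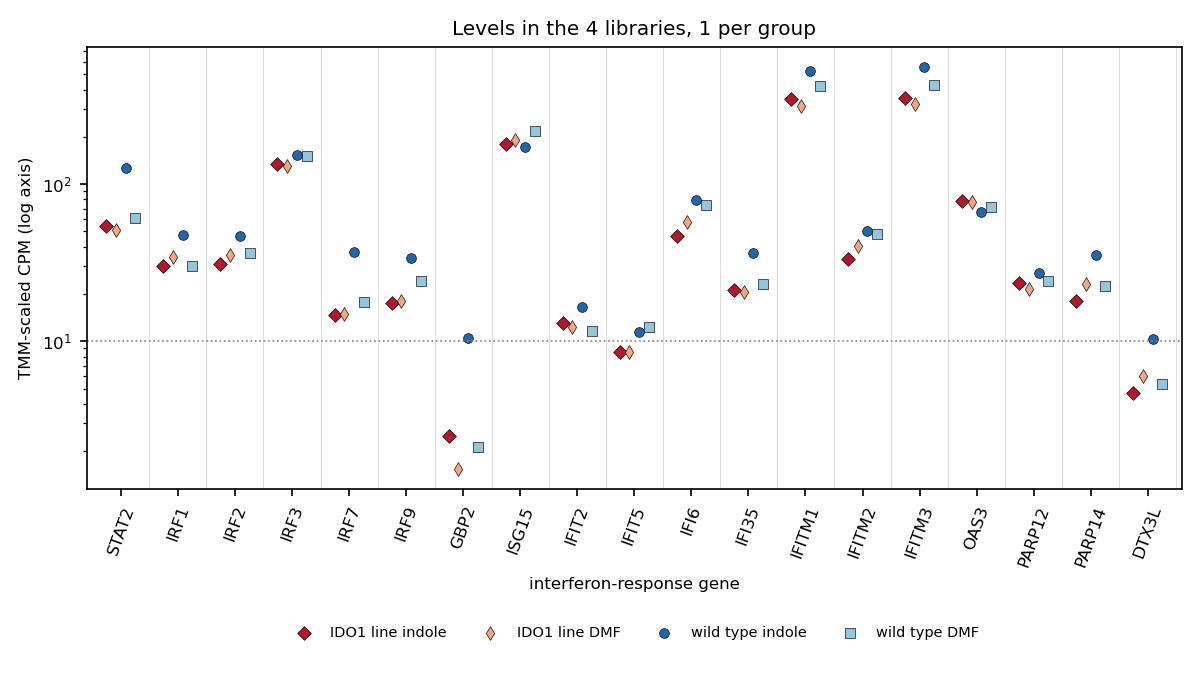
Scaled CPM (log axis) of the 19 interferon-response genes that reached 10 CPM (dotted line) in at least 1 library, with 1 point per library and no error bars because each group is 1 library. The circles of wild type with indole lie above the other 3 points for 16 of the 19 genes, and ISG15, IFIT5 and OAS3 are the exceptions.

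STAT2, a subunit of the complex that type I interferon activates, had 54.1 and 51.4 CPM in the IDO1 line with indole and with DMF, against 126 and 61.0 CPM in wild type with indole and with DMF. Wild type with indole was the one high library, and the other 3 lay close together. The ratio of indole to DMF was 1.05 for STAT2 in the IDO1 line (95% counting interval 0.967 to 1.15) and 2.07 in wild type (1.93 to 2.22). IRF7, which amplifies type I interferon production, also had wild type with indole as its one high library. It had 14.7 and 14.8 CPM in the IDO1 line with indole and with DMF, against 36.8 and 17.8 CPM in wild type with indole and with DMF. Its ratio for indole in wild type was 2.07 (1.82 to 2.35).

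IRF9, the DNA-binding partner of STAT2, had 17.6 and 18.0 CPM in the IDO1 line with indole and with DMF, against 33.7 and 24.1 CPM in wild type with indole and with DMF. IRF1, a factor induced mainly by type II interferon, had 30.1 and 34.6 CPM in the IDO1 line, against 47.6 and 30.3 CPM in wild type, in the same treatment order. It thus differed with indole in opposite directions, 1.15-fold lower in the IDO1 line (1.03 to 1.28) and 1.57-fold higher in wild type (1.42 to 1.74). IRF2, an antagonist of IRF1, had 31.2 and 35.6 CPM in the IDO1 line, against 46.9 and 36.5 CPM in wild type, in that treatment order. With indole it was 1.14-fold lower in the IDO1 line (1.02 to 1.27) and 1.28-fold higher in wild type (1.16 to 1.41). IRF3, the factor that sensors of viral RNA activate by phosphorylation, lay between 131 and 154 CPM in the 4 libraries.

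Among the guanylate-binding proteins, GTPases that attack vacuoles of pathogens, GBP2 alone had more than 1 read in a library. It had 48 and 35 reads in the IDO1 line with indole and with DMF, against 204 and 45 reads in wild type with indole and with DMF. The library of wild type with indole held more reads than the other 3 together. With 95% counting intervals, GBP2 was higher with indole in both lines, 1.64-fold in the IDO1 line (1.04 to 2.60) and 4.98-fold in wild type (3.59 to 7.04). GBP1 and GBP5 each had 1 read in wild type with indole and 0 elsewhere.

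ISG15, the ubiquitin-like protein that is conjugated to targets during the response, was highest in another library than the signalling factors. It had 182 and 190 CPM in the IDO1 line with indole and with DMF, against 173 and 217 CPM in wild type with indole and with DMF. In wild type it was 1.25-fold lower with indole (1.20 to 1.31). ISG20, an RNA exonuclease, stayed under 10 CPM with 55 and 80 reads in the IDO1 line, against 124 and 104 reads in wild type, in the same treatment order.

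The IFIT and IFI genes differed among themselves. IFIT proteins bind foreign RNA ends. IFIT2 had 13.1 and 12.4 CPM in the IDO1 line with indole and with DMF, against 16.6 and 11.7 CPM in wild type, a ratio of 1.42 for indole in wild type (1.20 to 1.68). There IFIT1 was 1.42-fold lower (1.04 to 1.94) on 70 reads with indole and 109 with DMF. IFIT3 had 12 to 15 reads in every library. IFIT5 had 8.57 and 8.50 CPM in the IDO1 line with indole and with DMF, against 11.5 and 12.3 CPM in wild type. IFI6, a small mitochondrial and ER membrane protein, had 47.1 and 57.4 CPM in the IDO1 line with indole and with DMF, against 79.3 and 74.1 CPM in wild type with indole and with DMF. Both IDO1 line values lay below both wild type values. IFI35, a partner of the interferon-induced protein NMI, had 21.2 and 20.5 CPM in the IDO1 line, against 36.3 and 23.2 CPM in wild type, and was 1.57-fold higher with indole in wild type (1.39 to 1.76). IFI44 went the other way on few reads, with 40 in wild type with indole and 95 in wild type with DMF, or 2.16-fold lower (1.48 to 3.21). IFI27 had 15 to 33 reads.

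The IFITM proteins sit in membranes and stop enveloped viruses from fusing. IFITM1 had 349 and 314 CPM in the IDO1 line with indole and with DMF, against 529 and 424 CPM in wild type with indole and with DMF. IFITM3 had 353 and 325 CPM in the IDO1 line, against 557 and 426 CPM in wild type, in the same treatment order. For both genes, each IDO1 line library lay below each wild type library. IFITM2 had 33.4 and 40.3 CPM in the IDO1 line, against 50.5 and 48.1 CPM in wild type, and its IDO1 line value with indole was 1.21-fold below that with DMF (1.09 to 1.34). The 3 genes are near-identical in part, and their reads may be shared. Of the 31-base words in their transcripts, 35.3% for IFITM1, 45.2% for IFITM2 and 56.0% for IFITM3 also occur in transcripts of other genes. These words span whole transcripts, and whether the targets themselves are shared was not examined.

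The MX and OAS genes, classical targets of type I interferon, were low or, for OAS3, close in all libraries. OAS3, which makes the 2-5A signal that activates RNase L, had 78.1 and 77.3 CPM in the IDO1 line with indole and with DMF, against 66.2 and 71.1 CPM in wild type with indole and with DMF. MX1, a GTPase that blocks viral nucleocapsids, had 48 to 60 reads in each library. OASL, a relative of OAS1 without its enzyme activity, had 101 to 127 reads in each. OAS1 had 10 and 11 reads in the IDO1 line with indole and with DMF, against 45 and 19 in wild type, and was 2.60-fold higher with indole in wild type (1.49 to 4.71). OAS2 had 0 to 4 reads.

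PARP9 and DTX3L, an ADP-ribosyltransferase family member and the ubiquitin ligase that pairs with it, lie head to head at a shared promoter. DTX3L had 90 and 137 reads in the IDO1 line with indole and with DMF, against 199 and 113 in wild type with indole and with DMF. PARP9 had 79 and 128 reads in the IDO1 line, against 184 and 95 in wild type, in the same treatment order. In both genes wild type with indole was the highest library and the IDO1 line with indole the lowest. With indole PARP9 was 1.36-fold lower in the IDO1 line (1.02 to 1.82) and 2.13-fold higher in wild type (1.65 to 2.76). PARP14, an ADP-ribosyltransferase with macrodomains, had 18.0 and 23.3 CPM in the IDO1 line with indole and with DMF, against 35.5 and 22.4 CPM in wild type. Its value with indole was 1.29-fold lower in the IDO1 line (1.13 to 1.49) and 1.59-fold higher in wild type (1.41 to 1.79). PARP10, another ADP-ribosyltransferase, had 72 and 49 reads in the IDO1 line, against 169 and 49 in wild type, so it was higher with indole in both lines, 1.75-fold in the IDO1 line (1.20 to 2.57) and 3.79-fold in wild type (2.74 to 5.32). PARP12, an antiviral member of the same family, had 23.5 and 21.4 CPM in the IDO1 line with indole and with DMF, against 27.3 and 24.2 CPM in wild type.

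**Figure D2:**
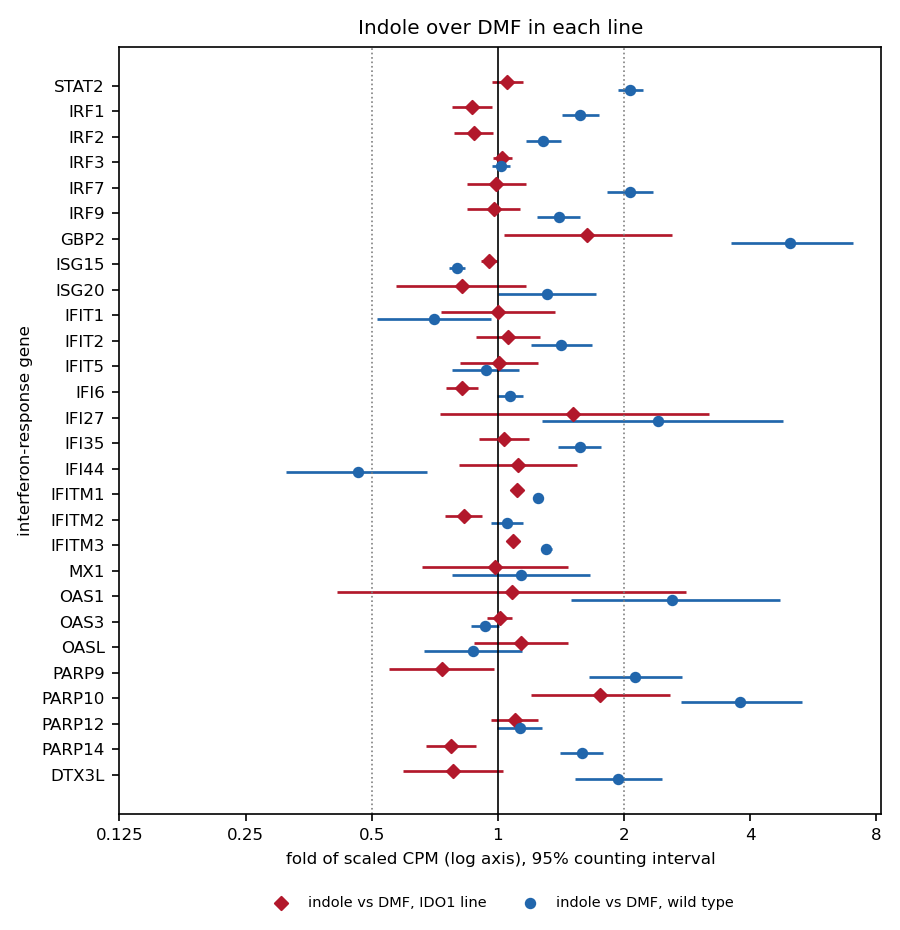
Fold of scaled CPM with indole over DMF (log axis) for the 28 interferon-response genes that reached 1 CPM, in the IDO1 line (diamonds) and in wild type (circles), with bars for the 95% interval of counting error. In the IDO1 line IRF1, IRF2, PARP9 and PARP14 are among those below 1. In wild type GBP2 is highest at 4.98, and IFI44 is lowest at 0.463. PARP10 at 3.79, OAS1 at 2.60, IFI27 at 2.42 and PARP9 at 2.13 stand above STAT2 and IRF7 at 2.07.

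The first comparison asked how the genes stood with indole in wild type cells. Genes at 10 CPM or more in 1 of the 2 libraries were compared on the log2 of CPM plus 1. Of 19 measured, 3 were at least 2-fold higher (STAT2, IRF7 and GBP2) and 0 lower. Of all 8679 genes, 1.36% were at least 2-fold higher and 1.54% lower, or 2.9% apart. Without GBP2 and DTX3L, in the 17 genes with a mean of 10 CPM over the 4 libraries, 2 were at least 2-fold higher, where 2.49% of all 8397 such genes were apart. The median log2 ratio was 0.38 for the 19 genes and -0.04 for all genes. It was above 0 for 16 of the 19, and for 4008 of the 8679. At 50 CPM or more the median was 0.08 for 8 genes and -0.14 for all genes. Counting intervals lay above a ratio of 1 for 12 genes and below it for ISG15, where those of 32.4% of all genes lay above and 40.9% below. By role, the medians were 0.64 for 3 PARP and DTX3L genes, 0.55 for the 6 signalling factors, 0.32 for the 3 IFITM genes and 0.28 for 4 IFIT and IFI genes. GBP2 stood at 1.89, OAS3 at -0.10 and ISG15 at -0.32. Scaled by library totals alone, all genes had a median of 0.14 and these genes 0.59, and IFIT5 and OAS3 changed sign.

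In the IDO1 line, no gene measured passed 2-fold with indole. Of 16 genes measured, 0 were at least 2-fold apart, where 0.0821% of all 8523 genes were, 0.0469% higher and 0.0352% lower. The median log2 ratio was 0.00 for the 16 genes and -0.01 for all genes, with a range from -0.35 for PARP14 to 0.15 for IFITM1. Counting intervals lay above 1 for 2 genes and below 1 for 6, IFI6 and IFITM2 among them, where those of 20.6% of all genes lay above and 23.8% below. The 2 indole responses were set against each other as the log2 ratio in the IDO1 line minus that in wild type. Of 19 genes, 3 were at least 1 log2 unit lower in the IDO1 line (IRF7 at -1.02, GBP2 at -1.42 and DTX3L at -1.13) and 0 higher, where 4.75% of all 8845 genes differed by as much, 2.61% higher and 2.14% lower. GBP2 and DTX3L are among the 19 only through wild type with indole. In the 17 genes with a mean of 10 CPM, 1 (IRF7) was as much lower, where 4.31% of all genes differed by as much. Just short of that limit stood PARP14 at -0.996 and STAT2 at -0.96. The median was -0.39 for the 19 genes and 0.03 for all genes. Of the 19 genes, 3 (IRF1, IRF2 and PARP14) were lower with indole in the IDO1 line and higher in wild type with both counting intervals off 1, where 8.36% of all genes were, and 19% of all genes were opposite in either order. These differences were not tested, as no group had replicates.

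**Figure D3:**
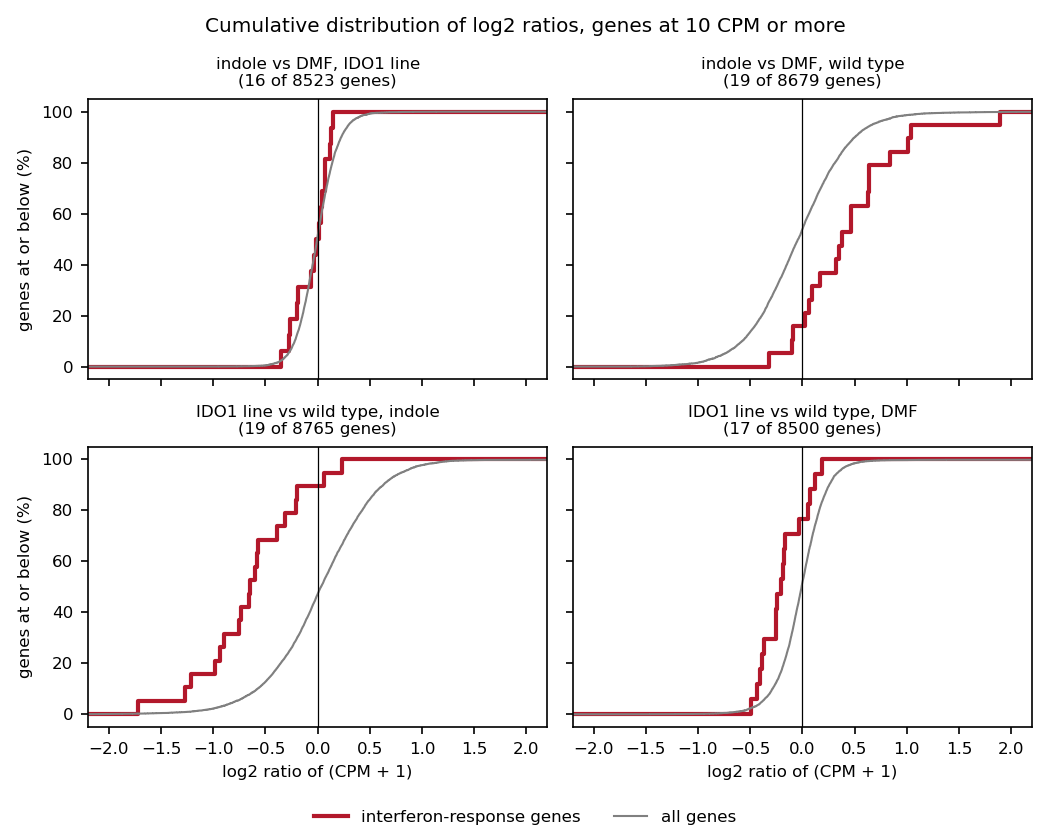
Share of genes (%) at or below each log2 ratio of CPM plus 1, for the interferon-response genes and for all genes at 10 CPM or more, in the 4 comparisons. The curve of the interferon-response genes lies right of that of all genes for indole in wild type (medians 0.38 and -0.04), near it for indole in the IDO1 line (0.00 and -0.01), and left of it for the IDO1 line against wild type in indole (-0.64 and 0.03) and in DMF (-0.20 and -0.01).

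The comparison of the lines asked how the genes stood with IDO1 overexpression. In DMF the genes were slightly lower in the IDO1 line. Of 17 measured, 0 were at least 2-fold apart, where 0.447% of all 8500 genes were, 0.282% higher and 0.165% lower. The log2 ratio was below 0 for 13 of the 17, among them all 3 IFITM genes and 5 of 6 signalling factors. It was below 0 for 4389 of the 8500. The median log2 ratio was -0.20 for the 17 genes and -0.01 for all genes, or -0.11 and 0.09 with library totals. With 95% counting intervals, IFITM1 was 1.35-fold lower (1.31 to 1.39), IRF9 1.34-fold lower (1.17 to 1.53), IFIT5 1.45-fold lower (1.20 to 1.75) and IFI6 1.29-fold lower (1.20 to 1.39). IRF1 was 1.14-fold higher (1.03 to 1.27) and OAS3 1.09-fold higher (1.01 to 1.16). With library totals IRF2 changed sign.

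In indole the gap between the lines was wider. Of 19 genes, 3 were at least 2-fold lower in the IDO1 line (STAT2, IRF7 and GBP2) and 0 higher, where 4.51% of all 8765 genes passed 2-fold, 2.28% upward and 2.22% downward. GBP2 and DTX3L are among the 19 only through wild type with indole. In the 17 genes with a mean of 10 CPM over the 4 libraries, 2 (STAT2 and IRF7) were as much lower. Of all 8397 such genes, 3.87% were at least 2-fold apart. The median log2 ratio was -0.64 for the 19 genes and 0.03 for all genes. Below 0 were 17 of the 19, and 4134 of the 8765. ISG15 and OAS3 were above 0, at 0.07 and 0.23, and ISG15 changed sign with library totals. STAT2 was 2.34-fold lower (2.17 to 2.51), IRF7 2.51-fold lower (2.18 to 2.89), GBP2 4.20-fold lower (3.06 to 5.88) and PARP14 1.97-fold lower (1.73 to 2.25). The high values of wild type cells in indole enter both this comparison and the first one. The DMF and indole comparisons of the lines have no library in common.

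**Figure D4:**
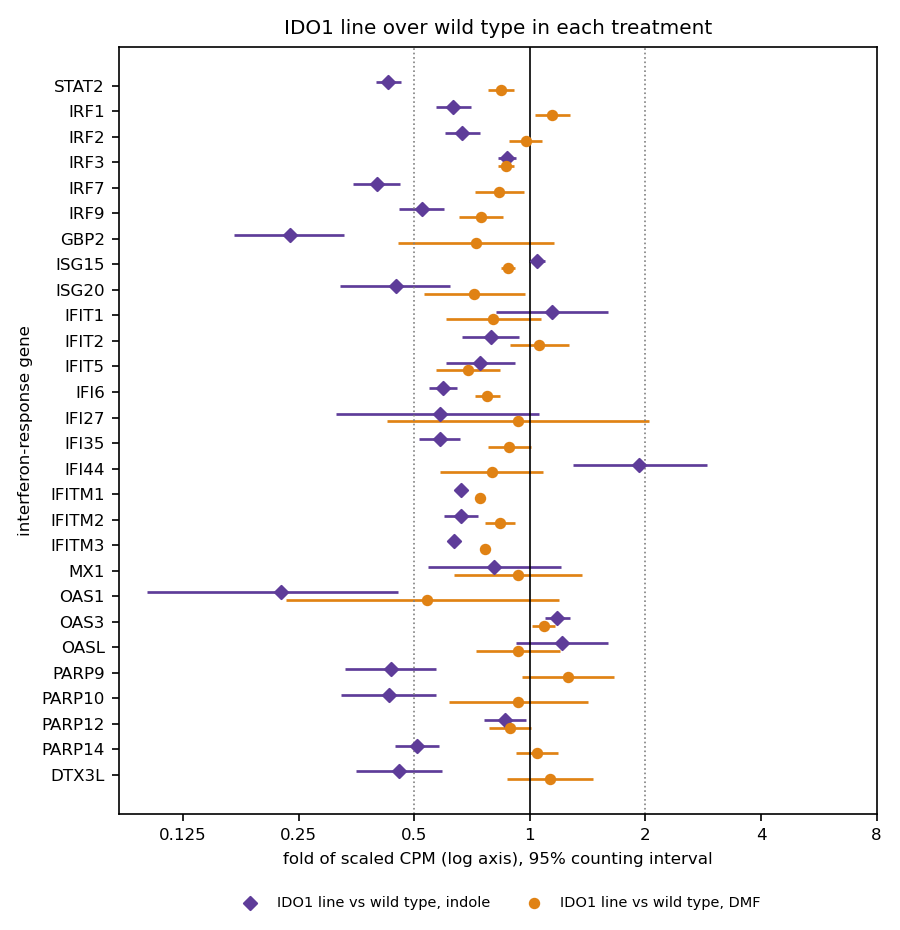
Fold of scaled CPM in the IDO1 line over wild type (log axis) for the 28 interferon-response genes that reached 1 CPM, in indole (diamonds) and in DMF (circles), with bars for the 95% interval of counting error. In indole GBP2, IRF7 and STAT2 are among those left of the 0.5 line and OAS3 lies right of 1, and in DMF no gene at 10 CPM or more lies outside 0.5 to 2.

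An additive fit over all 4 libraries tested the line with treatment in the model. By edgeR's quasi-likelihood test with Benjamini-Hochberg adjustment over 13122 genes, 0 of 29 interferon-response genes tested passed, where 2.45% of all genes did, 2.03% higher and 0.419% lower in the IDO1 line. At an unadjusted p under 0.05 there were 10, all lower in the IDO1 line, where 9.99% of all genes reached it, 5.29% higher and 4.7% lower. With DESeq2 the count was 0, with 7 at an unadjusted p under 0.05, where 0.671% of all genes passed and 5.2% reached that p. Of the 29 genes, 26 had a log2 fold change below 0, as did 6439 of all 13122 genes. The median was -0.47 against 0.01 for all genes. GBP2 came closest by edgeR, at -1.35 (approximate SE 0.397, adjusted p 0.0738, lower in both treatments). In DMF, on 35 reads against 45, it was 1.38-fold lower with a counting interval that holds 1 (0.867 to 2.21). STAT2 had -0.75 (adjusted p 0.131) and IRF7 -0.80 (adjusted p 0.138) in the same edgeR fit. The size for GBP2, STAT2 and IRF7 rests on wild type with indole. In a model of line alone without that library, GBP2 had -0.08, STAT2 -0.21 and IRF7 -0.27. There IFI35 had -0.16 against -0.49 in the additive fit, and OAS1 -0.83 against -1.55. More was kept by IRF9, with -0.44 against -0.69, ISG20, with -0.61 against -0.82, and IFI6, with -0.50 against -0.57. IFITM1 had -0.36 against -0.52 and IFITM3 -0.33 against -0.53.

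Genes known from embryonic kidney cell lines differed between the lines too. On a list of 24, written with earlier results known, 10 exceeded wild type by 2-fold or more in each treatment. IRS4, one of them, had 249 and 360 reads in the IDO1 line with indole and with DMF, against 0 and 1 in wild type. The summed level of the list was 860 and 800 CPM in the IDO1 line with indole and with DMF, against 419 and 779 CPM in wild type, and SOX11 and SALL2 had 0 reads throughout. Their part in the line differences of the interferon-response genes was not tested.

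The same additive fit tested indole with line in the model. Of 29 genes, 0 passed, where 0% of 13122 genes did, and 4 had an unadjusted p under 0.05 (GBP2, PARP10, STAT2 and IRF7), all higher with indole, where 3.41% of all genes did, 2.03% higher. DESeq2 gave 0, with 2 at an unadjusted p under 0.05, where 0.968% of all genes reached it. The smallest adjusted p in edgeR was 0.858, shared by GBP2, with a log2 fold change of 1.59 (approximate SE 0.398, higher with indole in both lines), and PARP10, with 1.39 (approximate SE 0.367, likewise).

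Other genes of the pathway were taken from a list of 99, of which 93 are in the files and 36 reached 10 CPM in at least 1 library. With indole in wild type, 1 of 36 measured was at least 2-fold higher and 0 lower, near the 1.36% and 1.54% of all genes, and their log2 ratios had a median of 0.20. The gene was IFNE, an interferon of epithelia, which reached 10 CPM only in wild type with indole. It had 71 and 84 reads in the IDO1 line with indole and with DMF, against 282 and 83 in wild type with indole and with DMF, and was 3.73-fold higher with indole in wild type (2.91 to 4.83). IFNA1, a type I interferon, fell in the IDO1 line, with a log2 fold change of -2.30 (approximate SE 0.624, edgeR adjusted p 0.0419, lower in both treatments), the one gene of 57 tested that passed for the line, where 2.45% of all genes did. It had 6 and 8 reads in the IDO1 line, against 48 and 23 in wild type, and may share reads with its near-identical copy IFNA13. Of 21 ligands in the files, 9 had 0 reads in every library and 10 others stayed below 1 CPM.

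The 5 measured receptors and kinases had a median log2 ratio of 0.25 with indole in wild type, the 5 sensors and adaptors 0.29, the 3 genes of ISG15 conjugation 0.37 and the 6 inhibitors -0.06. Among these 5 sensors and adaptors, MAVS, the adaptor of the RNA sensors, had a ratio of 1.61 (1.50 to 1.74), and TBK1, a kinase that phosphorylates IRF3, was 1.34-fold lower (1.25 to 1.44). The 16 other induced genes measured had a median of 0.20, with 0 at least 2-fold apart, where 2.9% of all genes were. The highest was HELZ2, a helicase, at a ratio of 1.55 (1.34 to 1.80). In the IDO1 line with indole, 0 of 32 measured pathway genes were at least 2-fold apart, where 0.0821% of all 8523 genes were. Their median was -0.03.

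The promoter matches were then set beside the ratios, after the ratios had been seen. In wild type with indole, the 5 measured genes with a GAS match, namely IRF1, IRF9, IFI35, IFITM1 and PARP14, had log2 ratios from 0.32 to 0.64. The 7 measured genes with an ISRE and no GAS match ranged from -0.32 for ISG15 to 0.84 for DTX3L, with a median of 0.10, so the ranges overlap. STAT2, at 1.04, had neither match in its window. In the IDO1 line the GAS genes ranged from -0.35 to 0.15 and the ISRE genes from -0.28 to 0.13. A match is a description of the letters in this window and not a binding site.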

How the data were processed

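Kit-purified RNA went into barcoded AmpliSeq transcriptome libraries, per the labels' protocols. The authors deposited raw read counts per amplicon target, with no normalization. The submitters' processing notes name build hg19. Aligner and counter are not given in the sources used here. Although 2 replicates per group are mentioned by the series text, a file holds 1 count column, so each group is 1 library of 18283862 to 22736172 reads. In the additive fits, with 1 library per group, the spread behind each p-value comes from indole responses that differ between the lines. It is not a spread of replicates. Separate cultures are nowhere stated, so part of it may be technical.

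Counts were scaled by TMM (edgeR 4.0.16, R 4.3.3). Folds are ratios of scaled CPM with exact 95% Clopper-Pearson intervals of the split of reads, which compare 2 libraries and not 2 conditions. Lacking molecular identifiers, PCR reads are not independent molecules. Log2 ratios use a pseudocount of 1, which understates low genes. The additive fits used filterByExpr and 1 residual degree of freedom, with a threshold of 0.05, and were tested on simulated data. The simulation changed genes between the lines only, so it held no indole response that differed between the lines. SEs were back-calculated from the F statistic. DESeq2 1.42.0 and the other scalings, filters and pseudocounts were alternatives. Words of 31 bases were compared across GENCODE 29 transcripts. Strand use in counting is not stated, and IRF1, IRF3 and IRF9 share 28.5%, 20.8% and 50.3% of their words with other genes. The words span whole transcripts and the positions of the targets were not examined. Whether the counts of these genes hold reads of other genes is thus not known.

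The genes, lists and rules were chosen with earlier results of these data known. The rule named all 36 genes, giving each library's value for those at 10 CPM or more, plus pathway genes that passed a test or were at least 2-fold apart. MAVS, TBK1, HELZ2 and the marker genes were named after their values were seen.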

Additional observations from a re-analysis of the deposited data

Results flagged for a closer look

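Among the 19 genes at 10 CPM or more, 3 were lower with indole in the IDO1 line and higher in wild type, with counting intervals that exclude a ratio of 1 in both lines. PARP9, under 10 CPM, met the same condition. Of all 8845 genes at that level, 8.36% were lower in the IDO1 line and higher in wild type in this way, and 19% were opposite in either order. The log2 response in the IDO1 line minus that in wild type was -0.83 for IRF1, -0.53 for IRF2 and -0.996 for PARP14. The difference was not tested, since each group is 1 library.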

How the results depend on the processing

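No paired analysis was possible because the labels give no replicate numbers and each group is 1 library. With indole in wild type, 3 genes were at least 2-fold apart, or 1 with a pseudocount of 5 (GBP2) and 1 at 50 CPM or more (STAT2). Of all genes, 2.9%, 1.72% and 2.97% were apart in those settings. For the IDO1 line against wild type in indole, the count of 3 became 6 with library totals, 6 at 1 CPM or more and 1 at 50 CPM or more. The share of all genes was 4.51%, and became 4.75%, 6.03% and 4.45% in that order. Of indole responses, 3 were 1 log2 unit apart between the lines, or 7 with library totals, 0 with a pseudocount of 5 and 0 at 50 CPM or more. The share of all genes was 4.75%, or 5.42%, 2.77% and 4.58% in those alternatives. With a mean of 10 CPM over the 4 libraries, a filter added after seeing the data, the count was 1 (IRF7), with 4.31% of all genes. By that filter the count for the lines in indole was 2 (STAT2 and IRF7), with 3.87% of all genes. The line effect called 0 genes by edgeR (10 at an unadjusted p under 0.05), 1 with library totals (GBP2, adjusted p 0.0360) and 2 with no filter on low counts (GBP2 and IRF7). Of all genes, those fits called 2.45%, 2.93% and 2.50%. The indole effect called 0 by edgeR (4 at an unadjusted p under 0.05) and 1 with no filter (GBP2), where 0.0597% of all genes were called. The additive model cannot leave out a library, having no residual degrees of freedom left, so models of 1 factor were used, which assume that the lone library varies like the others. Leaving out each library in turn gave 0 to 17 genes for the line, with 17 without wild type with DMF, where 32.1% of all genes were called, and 1 (IFI6) without wild type with indole, and 0 to 1 for indole, with GBP2 without the IDO1 line with indole. The first of these sets the IDO1 line against wild type with indole alone. Counts of 0 for indole in the IDO1 line and for the lines in DMF held under all 7 alternatives. The 10 genes at an unadjusted p under 0.05 for the line kept their sign in all 97 alternative fits. They were picked for that p from these same libraries, so the kept sign is no independent support. GBP2, PARP9, PARP10, OAS1 and other genes under 10 CPM in most libraries are limited by depth.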
